A study of Mus musculus with 8 samples.

Results

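The cytochrome P450 genes of mouse kidney were taken as every protein-coding gene of the deposited table whose symbol begins with Cyp and a number. Left out were the Cyp4a genes and Cyp51, Cyp26b1, Cyp27b1, Cyp24a1 and Cyp2r1. This gave 87 of 54532 genes, chosen by name and not by any measured value. Polyadenylated RNA was sequenced from kidneys of ICR mice, an outbred stock, given bisphenol A (BPA), used to make polycarbonate plastic, or vehicle, with 4 libraries in each group. No genotype or allele is labelled, and the sources used here do not give dose, route, duration, age or what the vehicle was. Sex is not reported here, so the levels below are not tied to males or females. Whether each library is 1 animal is not labelled. The p-values therefore reflect only how these samples vary, and this variation may be technical.

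Cytochromes P450 are heme enzymes that insert 1 atom of molecular oxygen into a lipophilic substrate, drawing electrons from NADPH through Por in the endoplasmic reticulum or through ferredoxin in mitochondria. Some families make or break down steroids, bile acids, retinoids and fatty acid mediators, and others clear drugs and pollutants. In rodents the kidney is second to the liver in P450 content, most of it in the proximal tubule, and several mouse kidney P450 genes depend on androgen. Levels are given as FPKM, reads scaled to gene length and to a size for each library, so they can be compared between genes. Changes are BPA minus vehicle in log2(FPKM + 1), and for low genes this scale understates a change.

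The labelled tissue matched its markers. The 6 markers of the first segments of the proximal tubule summed to 1478 to 1548 FPKM with vehicle and 1206 to 1896 FPKM with BPA, and 5 markers of its last segment to 881 to 1206 and 926 to 1031 FPKM. Of these 5, Slc7a12 was at 1.11 FPKM or less in every library. Between 15944081 and 17351540 reads per library were recovered. BPA replicate 4 had the fewest genes above 0, at 17174. Vehicle replicate 4 carried transcripts of skeletal muscle (5 markers summing to 224 FPKM against 0.231 to 1.17 FPKM elsewhere) and of fat (5 adipocyte markers summing to 252 FPKM against 0.0957 to 65.4 FPKM). Fat transcripts were not confined to it. The adipocyte sum was 0.37, 65.4 and 27.8 FPKM in vehicle replicates 1, 2 and 3, and at most 14.1 FPKM with BPA. The 2 brown fat markers summed to 13 FPKM in vehicle replicate 2, 10.6 FPKM in vehicle replicate 4 and 0.347 FPKM or less elsewhere. The share of mitochondrial reads was 7.02 to 8.33% with vehicle and 9.66 to 14.2% with BPA, so the groups did not overlap, and its part in the results was not tested. In whole tissue, fewer cells of a type and less RNA per cell cannot be told apart.

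Sequences upstream of 3 genes are printed as description, and their part in the values was not tested. Cyp2a4 and Cyp2a5, which lie on chromosome 7 and are both abundant, have nearly the same upstream sequence as well as nearly the same transcript. Over the 216 upstream positions that both printed stretches share, 212 were equal (98.1%), and the 4 that differ are in capitals. The last is upstream of Cyp1b1 on chromosome 17, with its single copy of the core of the aryl hydrocarbon receptor element (GCGTG, here on the opposite strand) in capitals. All are RefSeq sequence of GRCm38.p6, written 5′ to 3′ on the strand of the gene, and stop before the start of the gene model.
Cyp2a4, chr7:26306942-26307168, plus strand: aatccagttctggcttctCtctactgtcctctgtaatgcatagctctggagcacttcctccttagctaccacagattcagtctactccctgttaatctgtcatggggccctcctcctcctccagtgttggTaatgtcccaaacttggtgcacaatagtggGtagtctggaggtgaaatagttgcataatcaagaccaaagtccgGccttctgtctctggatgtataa
Cyp2a5, chr7:26835089-26835304, plus strand: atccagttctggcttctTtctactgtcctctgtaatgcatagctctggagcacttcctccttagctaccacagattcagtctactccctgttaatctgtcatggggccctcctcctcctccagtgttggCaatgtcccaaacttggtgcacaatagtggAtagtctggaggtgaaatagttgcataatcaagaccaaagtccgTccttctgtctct
Cyp1b1, chr17:79715062-79715311, minus strand: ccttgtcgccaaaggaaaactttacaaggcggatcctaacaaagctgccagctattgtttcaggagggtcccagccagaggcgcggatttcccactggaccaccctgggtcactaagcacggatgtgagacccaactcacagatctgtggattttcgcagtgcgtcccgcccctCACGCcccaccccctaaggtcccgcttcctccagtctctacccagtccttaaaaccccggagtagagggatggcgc

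The first question was which P450 genes the kidney expressed. Of the 87 genes, 28 averaged 0.5 FPKM or more and were tested, 37 had reads but a lower mean, and 22 had no read in any library. A handful of genes made nearly all of the P450 transcripts. Cyp4b1 alone held 44.7% of the summed FPKM of the 87 genes, Cyp4b1 and Cyp2e1 together 69.4%, and the addition of Cyp2j5 and Cyp2a4 brought the share to 90.6%. P450 genes took 1.43 ± 0.18% of recovered reads with vehicle and 1.32 ± 0.212% with BPA (SD, n = 4), and the libraries of the groups overlapped. Reads of 6 genes placed them at 100 FPKM or more, 12 genes were at 10 FPKM or more, and another 12 were between 1 and 10 FPKM.

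**Figure D1:**
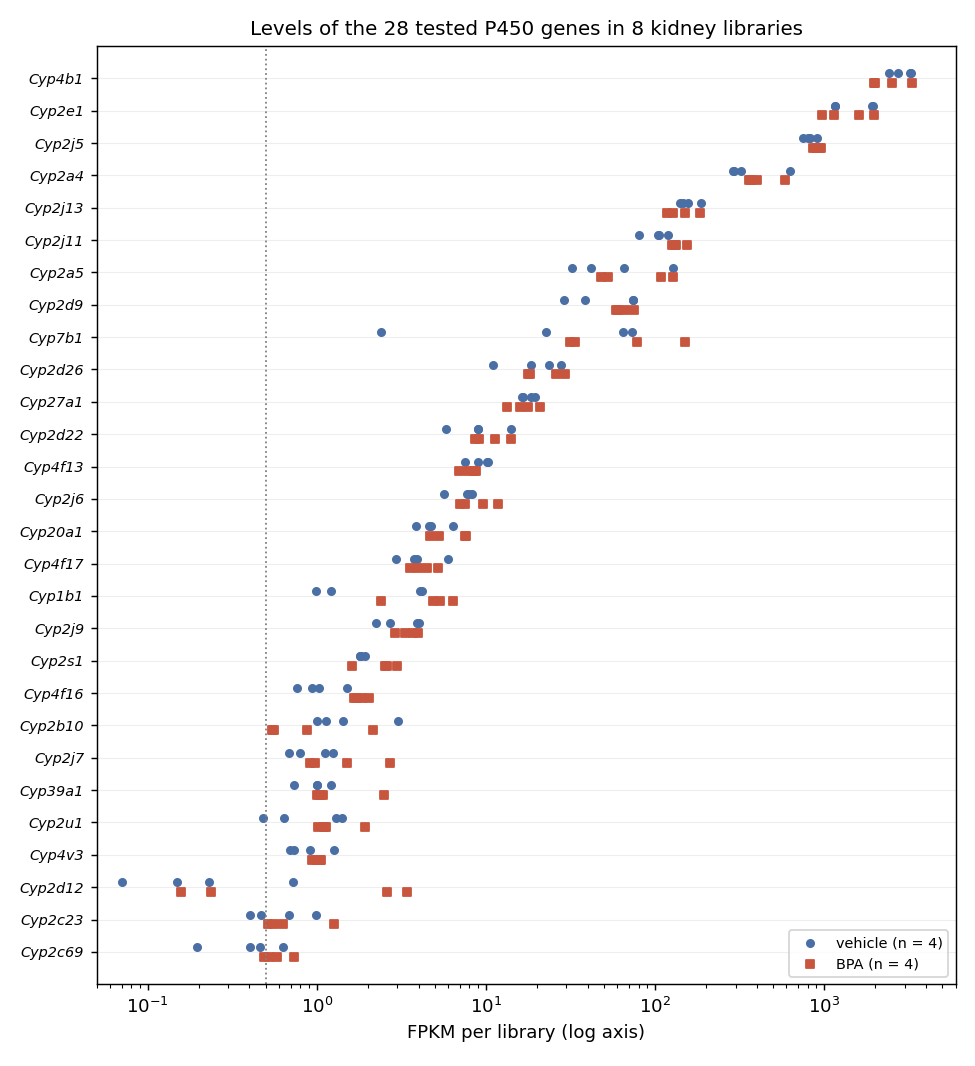
FPKM on a log axis for each of the 28 tested P450 genes (rows, ordered by mean level) in each library; circles are the 4 vehicle and squares the 4 BPA libraries, and the dotted line marks 0.5 FPKM. Levels run from Cyp4b1, at 1975 to 3322 FPKM, down to Cyp2c69, at 0.195 to 0.736 FPKM, and the symbols of the groups overlap in all rows except Cyp4f16 and Cyp2j11.

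The most abundant member was Cyp4b1, which oxidizes fatty acids and activates some foreign compounds, and which ranked 11 among all genes of the table by mean level. It lies on chromosome 4 from 115624725 to 115647723 (GRCm38, as all coordinates here). Cyp2e1, which oxidizes ethanol and small solvents, ranked 17, and Cyp2j5, an arachidonic acid epoxygenase of mouse kidney, ranked 29. Cyp2a4, which hydroxylates testosterone, followed at rank 82. Next came Cyp2j13 at a mean of 152 FPKM, Cyp2j11 at 120 FPKM and Cyp2a5, a coumarin hydroxylase, at 75.8 FPKM. The testosterone hydroxylase Cyp2d9 was at 59.7 FPKM and the oxysterol hydroxylase Cyp7b1 at 57.1 FPKM.

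Expression was uneven along the gene clusters. All 8 Cyp2j genes lie on chromosome 4 between 96027534 and 96664154, and 6 of them were tested, 2 had fewer reads and none was without reads. Their means summed to 1154 FPKM. By contrast the 15 Cyp2c genes, on chromosome 19 between 39007019 and 44029208, summed to 1.35 FPKM: Cyp2c23 and Cyp2c69 were tested, 7 had fewer reads and 6 had none. None of the 9 Cyp3a genes of chromosome 5, the major drug-metabolizing family of liver, reached 0.5 FPKM. They summed to 0.307 FPKM, and 4 of them had no read. The liver markers Apoa1, Fgb, Serpina1a, Ahsg and Cps1 were at 0.793 FPKM or less in every library, and the 6 liver markers with albumin summed to 2.55 to 10.7 FPKM.

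Genes of steroid hormone synthesis were near or at 0 reads. Cyp11a1, which makes pregnenolone from cholesterol, Cyp11b2, the aldosterone synthase, and Cyp19a1, the aromatase, had 0 reads in all 8 libraries. Cyp11b1, the last enzyme of corticosterone synthesis, had 4 reads, all in vehicle replicate 4, and Cyp21a1 had 4 reads over 3 libraries. Cyp17a1, which makes androgen precursors, was the highest of them with 50 reads and a mean of 0.174 FPKM. Nr5a1, which drives adrenal steroid genes, was at 0 in every library, and the 4 adrenal markers summed to 0.839 to 2.76 FPKM. The bile acid genes Cyp7a1 and Cyp8b1 had 0 reads as well. For the 22 genes with 0 reads, an upper limit of 3 reads over the 8 libraries allows a mean of 0.00459 to 0.0145 FPKM, depending on gene length, and covers counting error only.

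Several low genes are known for induction by chemicals. Cyp1a1, the classical target of the aryl hydrocarbon receptor, had 163 reads and lay just below the limit for testing at a mean of 0.434 FPKM. It was at 0.646, 0.422, 1.04 and 0.0827 FPKM with vehicle and at 0.393, 0.425, 0.353 and 0.109 FPKM with BPA. All BPA values thus lay within the vehicle range, and its log2 change without a filter on low values was -0.20 (SE 0.195, limma adjusted p = 0.712). Its neighbour Cyp1a2 had 1 read. Cyp3a11, a target of the pregnane X receptor, had 3 reads in all with vehicle and 17 with BPA. It was at 0.0214 FPKM or less with vehicle and at 0.0905, 0.0116, 0 and 0.0951 FPKM with BPA. Without a filter on low values its log2 change was 0.06 (SE 0.0337, limma adjusted p = 0.711). The constitutive androstane receptor gene Nr1i3 was at 0.0391 FPKM or less. The aryl hydrocarbon receptor gene Ahr averaged 1.14 ± 0.3 FPKM with vehicle and 1.44 ± 0.347 FPKM with BPA (log2 change 0.19, adjusted p = 0.629), and the pregnane X receptor gene Nr1i2 averaged 0.43 ± 0.134 FPKM with vehicle and 0.817 ± 0.373 FPKM with BPA (log2 change 0.32, adjusted p = 0.508). Nr1i2 passed the filter on low values only through BPA. Its BPA replicate 3, at 0.289 FPKM, was below vehicle replicates 1, 2 and 4. Cyp2c69, at a mean of 0.502 FPKM, and Cyp4f15, at 0.471 FPKM, lay just inside and just outside the limit for testing.

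The second question was whether BPA libraries differed from vehicle. None of the 28 tested P450 genes passed limma's test at a Benjamini-Hochberg adjusted p under 0.05, where 0.00748% of all 13376 tested genes were called. The smallest adjusted p among them was 0.365. At an unadjusted p under 0.05 there were 2 higher in BPA (7.14% of 28, against 4.18% of all tested genes) and 0 lower (against 6.83%), and limma-voom on recovered reads also called 0, beside 2 higher and 0 lower. With a term for replicates 1 and 2 against 3 and 4, the count at an unadjusted p under 0.05 was 4 higher and 0 lower of 28, against 742 higher and 1054 lower of all 13376 genes, with 0 P450 genes called. In the fit without that term, the 2 genes were Cyp4f16 and Cyp2j11, and both had every BPA library above every vehicle library, which 3.23% of all tested genes had. No P450 gene had every BPA library below every vehicle library, which 4.66% of all tested genes had.

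Among the genes that passed the filter on low values, more had a higher than a lower mean with BPA. Of these 28, 22 had a higher mean in BPA and 6 a lower one, with a median log2 change of 0.21, while 6421 of all 13376 tested genes were higher (48.0%) with a median of -0.01. Replicates 1 and 2 alone gave a median of 0.10 for the P450 genes, and replicates 3 and 4 alone gave 0.29. Within both, 17 genes were higher and 4 lower. Over all 13376 tested genes these medians were -0.00354 and -0.0207, and 3477 genes were higher and 3854 lower within both. The P450 median was 0.12 without BPA replicate 4, with 21 higher and 7 lower, and 0.17 without vehicle replicate 4. Without both replicates 4 it was 0.08, with 17 higher and 11 lower. Without the filter, over the 65 P450 genes with reads, 40 were higher and 25 lower, with a median of 0.02. Cyp2d12 and Cyp2c69, both among the 17, passed the filter only through BPA. Their means were 0.295 and 0.423 FPKM with vehicle and 1.6 and 0.581 FPKM with BPA. Cyp1a1 and Cyp4f15 averaged 0.549 and 0.51 FPKM with vehicle and 0.32 and 0.431 FPKM with BPA, and did not pass. The split among tested genes thus depends in part on the filter. These counts are descriptions, and many P450 genes are neighbours with shared sequence.

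**Figure D2:**
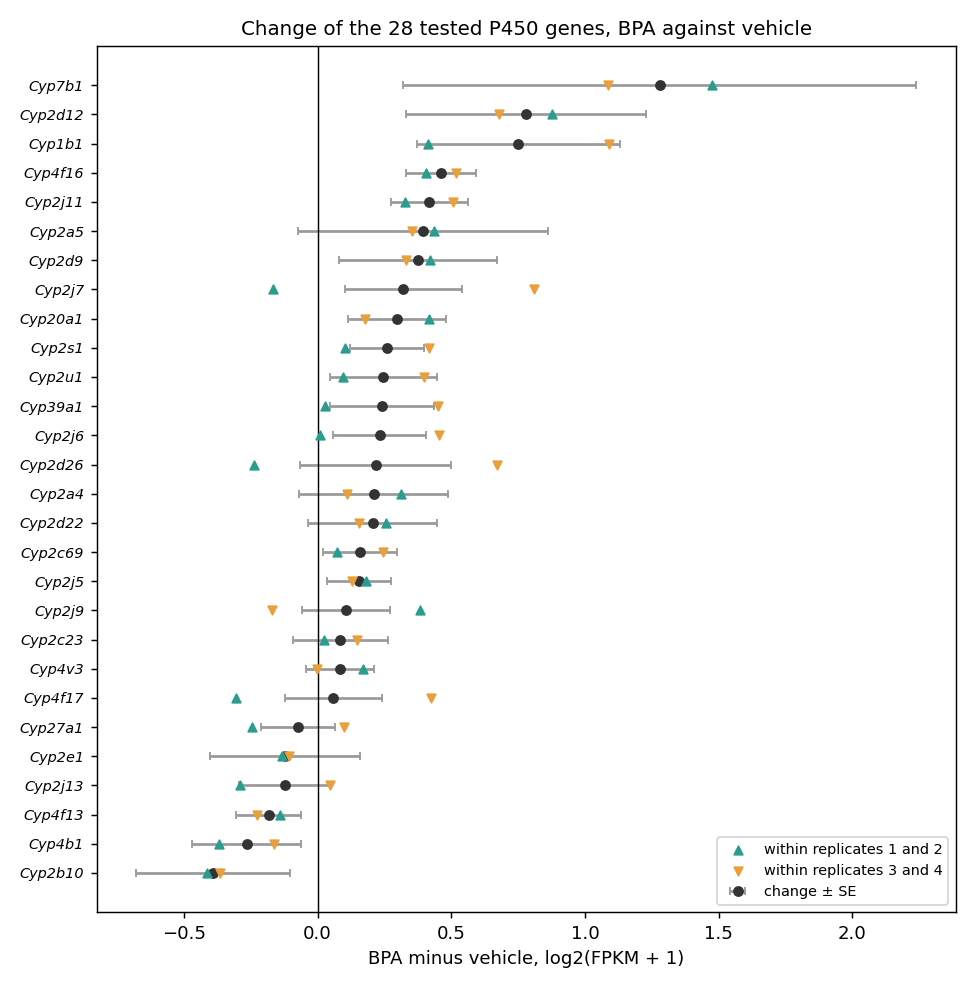
Change of each of the 28 tested P450 genes (rows), BPA minus vehicle in log2(FPKM + 1); dots with bars are the change over all 8 libraries ± SE, and triangles the change within replicates 1 and 2 (pointing up) or 3 and 4 (pointing down). Dots of 22 genes lie right of 0 and 6 left of it, and several genes such as Cyp2j7 and Cyp2d26 have triangles on opposite sides.

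Among P450 enzymes of fatty acids, Cyp4f16 had the smallest p of all members. The Cyp4f enzymes hydroxylate leukotrienes and long-chain fatty acids at the end of the chain. Cyp4f16 was at 1.5, 0.76, 0.942 and 1.03 FPKM with vehicle and at 1.72, 1.85, 1.67 and 2.03 FPKM with BPA. The lowest BPA library was above the highest vehicle library, replicate 1. The log2 change was 0.46 (SE 0.131, limma adjusted p = 0.365), and it was 0.42 without both replicates 4. Its transcript matches that of Cyp4f37 with 96.1% identity over 71.6% of its length, so the division of reads between them is uncertain; Cyp4f37 had 9 reads in all with vehicle and 0 with BPA.

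The other tested genes of this kind did not share that pattern. Cyp4f13 averaged 9.25 ± 1.29 FPKM with vehicle and 8 ± 0.81 FPKM with BPA (log2 change -0.18, adjusted p = 0.567), and Cyp4f17 4.17 ± 1.3 and 4.3 ± 0.714 FPKM (log2 change 0.06, adjusted p = 0.909). The remaining Cyp4f genes, Cyp4f14, Cyp4f15, Cyp4f18, Cyp4f37, Cyp4f39 and Cyp4f40, were all below the limit for testing, with 0 reads for Cyp4f40. Cyp4b1 was at 2410, 2735, 3258 and 3238 FPKM with vehicle and at 1975, 2006, 3322 and 2531 FPKM with BPA. Replicates 1 and 2 of BPA were below all other libraries, while BPA replicate 3 was the highest of the 8 (log2 change -0.27, SE 0.203, adjusted p = 0.614). Cyp4v3, which hydroxylates polyunsaturated fatty acids, and Cyp2u1, which acts on long-chain fatty acids, averaged 0.905 ± 0.262 and 0.959 ± 0.465 FPKM with vehicle and 1.01 ± 0.0556 and 1.3 ± 0.429 FPKM with BPA.

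Arachidonic acid epoxygenases of the 2j and 2c subfamilies gave 7 of 8 tested genes higher in BPA, with 0 called and a median log2 change of 0.16. Of all tested genes, 48.0% were higher. Among the 7 was Cyp2c69, which passed the filter on low values only through BPA. Without that filter, the low genes Cyp2j8, Cyp2j12, Cyp2c38, Cyp2c65, Cyp2c67 and Cyp2c68 had higher means in BPA. The low genes Cyp2c40, Cyp2c50 and Cyp2c70 had lower ones. Cyp2j11 was at 105, 106, 120 and 80.5 FPKM with vehicle and at 132, 133, 127 and 154 FPKM with BPA, so the groups did not overlap. Vehicle replicate 4 was the lowest and BPA replicate 4 the highest of all. The log2 change was 0.42 (SE 0.144, limma adjusted p = 0.387), and without both replicates 4 it was 0.25. Cyp2j5 varied least of the P450 genes between libraries of a group, at the 4.78th percentile of all tested genes for this spread. Its values were 749, 807, 911 and 827 FPKM with vehicle and 866, 897, 963 and 933 FPKM with BPA, with vehicle replicate 3 above 2 of the BPA libraries (log2 change 0.15, SE 0.12, adjusted p = 0.62).

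Cyp2j13 was the member of this subfamily with a lower mean in BPA, at 158 ± 21.2 FPKM with vehicle and 146 ± 30.1 FPKM with BPA (log2 change -0.12, adjusted p = 0.781). Cyp2j6 averaged 7.42 ± 1.2 and 8.98 ± 2.16 FPKM, Cyp2j9 3.22 ± 0.877 and 3.48 ± 0.472 FPKM, and Cyp2j7 0.963 ± 0.268 and 1.53 ± 0.835 FPKM. For Cyp2j7 the change was -0.17 from replicates 1 and 2 alone and 0.81 from replicates 3 and 4 alone. Cyp2c23, the kidney epoxygenase earlier named Cyp2c44, averaged 0.635 ± 0.265 FPKM with vehicle and 0.742 ± 0.35 FPKM with BPA (log2 change 0.09, adjusted p = 0.86), and its direction turned without BPA replicate 4 (-0.05). Cyp2c69 averaged 0.423 ± 0.18 and 0.581 ± 0.111 FPKM, so it passed the filter on low values only through BPA. Its transcript is 97.7% identical to that of Cyp2c40.

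The enzymes that process the same lipids were compared beside them, from a list of 16 arachidonic acid genes of which 11 were tested. None passed limma's test, with 7 higher and 4 lower and a median log2 change of 0.09. Hpgd, which inactivates prostaglandins, was at 5.03, 4.92, 4.49 and 2.09 FPKM with vehicle and at 8.53, 10.6, 6.28 and 8.09 FPKM with BPA. Every BPA library was above every vehicle library (log2 change 0.90, SE 0.234, adjusted p = 0.355). Ptges2, which encodes a prostaglandin E synthase, was at 10.2, 10.2, 12.9 and 12 FPKM with vehicle and at 9.47, 9.13, 9.88 and 7.44 FPKM with BPA. Here every BPA library was below every vehicle library (log2 change -0.31, SE 0.12, adjusted p = 0.429). Ephx2, the soluble epoxide hydrolase that breaks down epoxides of arachidonic acid, averaged 247 ± 22.4 and 239 ± 18 FPKM (log2 change -0.04).

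**Figure D3:**
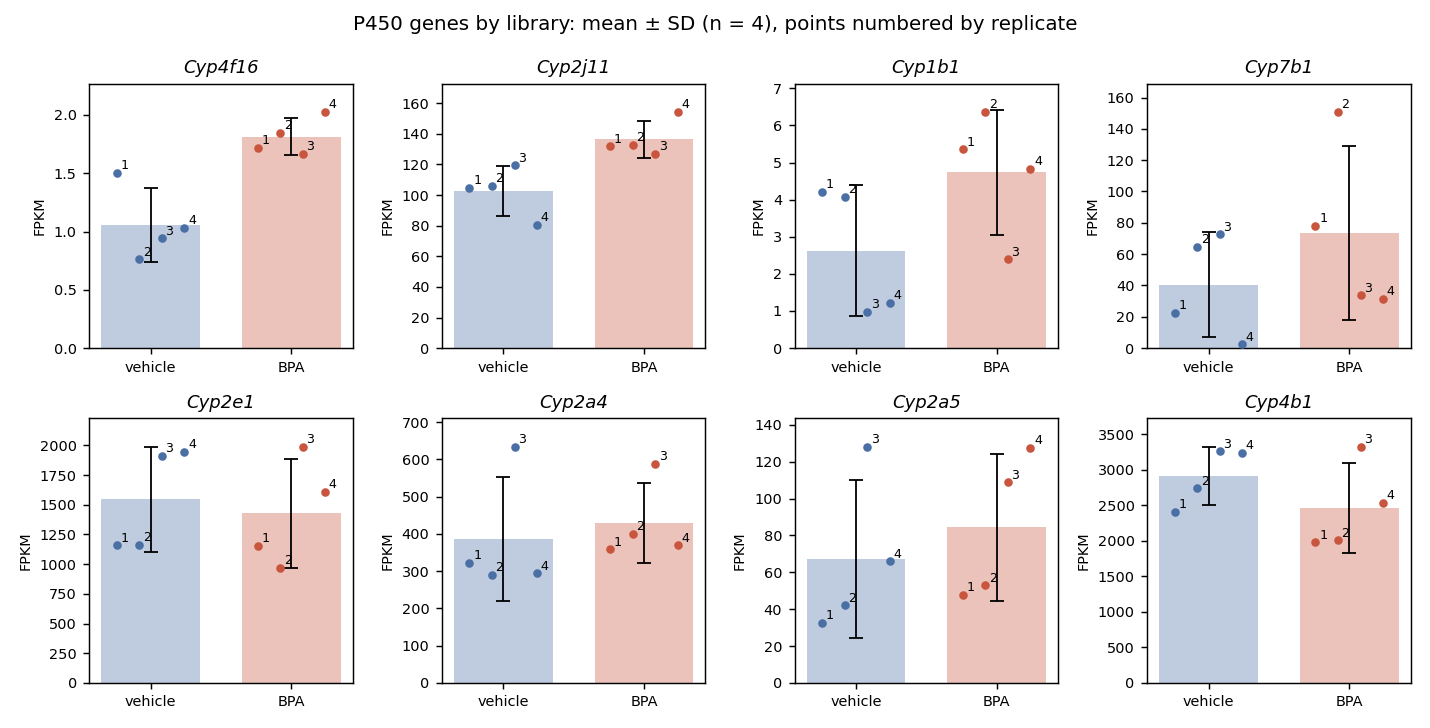
FPKM of 8 P450 genes in each group; bars are means, error bars SD (n = 4), and points single libraries numbered by replicate, on axes that start at 0. The groups do not overlap for Cyp4f16 and Cyp2j11, overlap for the other 6 genes, and the points of Cyp2e1 and Cyp2a5 lie higher for replicates 3 and 4 than for replicates 1 and 2 in both groups.

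P450 enzymes of foreign compounds in subfamilies 2a, 2b and 2e gave 2 genes higher and 2 lower in BPA (median log2 change 0.04), with 0 called. Cyp2e1 was at 1160, 1161, 1913 and 1945 FPKM with vehicle and at 1152, 970, 1990 and 1609 FPKM with BPA. Replicates 1 and 2 of both groups were below replicates 3 and 4 of both groups, so the spread within a group exceeded the difference between groups (log2 change -0.12, SE 0.281, adjusted p = 0.876). Cyp2a5 was divided in the same way, at 32.4, 42.1, 128 and 66.1 FPKM with vehicle and at 47.8, 53, 109 and 128 FPKM with BPA (log2 change 0.39, SE 0.467, adjusted p = 0.747). Single libraries moved this value widely: it was 0.12, 0.24 and 0.77 without vehicle replicate 1, 2 and 3, and 0.62, 0.23 and 0.15 without BPA replicate 1, 3 and 4. Among all tested genes, 4.2% had replicates 3 and 4 all above replicates 1 and 2, as had 2 of 28 P450 genes, Cyp2e1 and Cyp2a5. None of the 28 had them all below, which 3.66% of all tested genes had. Dbp, which encodes a clock-driven activator, ranged over 0.876 to 9.02 FPKM for replicates 1 and 2 and over 22.4 to 44.2 FPKM for replicates 3 and 4; its part in these values was not tested.

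Cyp2a4 did not follow its near-copy in every library. It was at 322, 290, 634 and 294 FPKM with vehicle and at 358, 401, 589 and 369 FPKM with BPA, highest in replicate 3 of both groups (log2 change 0.21, SE 0.279, adjusted p = 0.776). BPA replicate 4 was the highest library for Cyp2a5 with BPA but not for Cyp2a4. Without vehicle replicate 3 the log2 change of Cyp2a4 was 0.48, without BPA replicate 3 it was 0.05, and without vehicle replicate 2 or 4 it was 0.10 or 0.11. The longest transcripts of these genes aligned over 1739 positions with 98.2% identity, 30 mismatches and 1 gap, so reads between the mismatches cannot be assigned to one of them and the separate levels are uncertain. Cyp2b10, a target of the constitutive androstane receptor, was at 1.14, 1.43, 1.01 and 3.03 FPKM with vehicle and at 0.873, 0.561, 2.15 and 0.544 FPKM with BPA (log2 change -0.39, SE 0.289, adjusted p = 0.604). Its highest library was vehicle replicate 4, the library with muscle transcripts and the highest adipocyte sum, and without that library the log2 change was -0.17. The part of those transcripts was not tested.

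The 2d subfamily lies on chromosome 15 between 82370527 and 82794294. All 4 of its tested genes had higher means in BPA, as had 48.0% of all tested genes. With 0 called, their median log2 change was 0.30. One of them, Cyp2d12, passed the filter on low values only through BPA, with a vehicle mean of 0.295 FPKM. Without that filter, the low genes Cyp2d10 and Cyp2d11 had log2 changes of -0.07 and 0.04. Cyp2d26 was at -0.24 from replicates 1 and 2 alone and at 0.67 from replicates 3 and 4 alone. Cyp2d9 was at 29.1, 74.2, 73.7 and 38.8 FPKM with vehicle and at 67, 58.7, 60.8 and 75.1 FPKM with BPA, where the low values were vehicle replicates 1 and 4 (log2 change 0.38, SE 0.295, adjusted p = 0.623). Without vehicle replicate 1 it was 0.12. Cyp2d12 ranged most widely in this subfamily. It was at 0.0704, 0.231, 0.15 and 0.727 FPKM with vehicle and at 0.238, 2.59, 0.158 and 3.4 FPKM with BPA, so that BPA replicates 2 and 4 were high and the other 2 lay within the vehicle range (log2 change 0.78, SE 0.447, adjusted p = 0.516). Without BPA replicate 4 it was 0.44. Cyp2d22, often compared with human CYP2D6, averaged 9.45 ± 3.38 and 10.8 ± 2.48 FPKM, and Cyp2d26 20.2 ± 7.22 and 22.9 ± 5.77 FPKM. Cyp2d9 matches Cyp2d11 with 93.4% identity over 92.9% of its transcript.

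Of the family 1 genes, which respond to the aryl hydrocarbon receptor, only Cyp1b1 was tested. Cyp1b1, which acts on estradiol and polycyclic hydrocarbons and is known from vessels and stroma, was at 4.22, 4.07, 0.983 and 1.21 FPKM with vehicle and at 5.36, 6.36, 2.4 and 4.84 FPKM with BPA. Vehicle replicates 3 and 4 were the lowest, and BPA replicate 3 was below vehicle replicates 1 and 2, so the groups overlapped. The log2 change was 0.75 (SE 0.379, limma adjusted p = 0.484), with 0.41 from replicates 1 and 2 alone and 1.09 from replicates 3 and 4 alone. Markers of endothelium were likewise lowest in vehicle replicates 3 and 4, summing over 5 genes to 49.3, 58.2, 16.3 and 14.8 FPKM with vehicle and 54.7, 64.7, 26.8 and 30.5 FPKM with BPA. The 5 markers of fibroblasts and pericytes summed to 17.9, 16.3, 7.71 and 9.14 FPKM and to 19.1, 19.6, 11 and 15.6 FPKM. In BPA replicate 4, Cyp1b1 was above vehicle replicates 1 and 2, and the endothelial sum was below both. Of the fibroblast and pericyte markers there, Col3a1 (3.6 FPKM) and Pdgfra (1.83 FPKM) were above both. Dcn (2.11 FPKM) and Pdgfrb (5.85 FPKM) were below both, and Col1a1 (2.18 FPKM) lay between. All 10 markers were detected, and their part in the Cyp1b1 values was not tested. Other targets of the receptor gave Tiparp, an enzyme that restrains it, at 8.98 ± 0.927 and 9.67 ± 0.873 FPKM and Nqo1, a quinone reductase, at 27.8 ± 2.04 and 26.8 ± 4.15 FPKM. Ugt1a6b, a glucuronosyltransferase, averaged 1.94 ± 0.439 and 2.6 ± 1.33 FPKM. Of 6 listed targets 3 were tested, with 2 higher, 1 lower and 0 called.

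Sterol and bile acid enzymes were led by Cyp7b1, which hydroxylates oxysterols and some steroid hormones. It was at 22.7, 64.6, 72.7 and 2.39 FPKM with vehicle and at 78, 151, 33.7 and 31.5 FPKM with BPA. The highest library was 63 times the lowest, and for spread within groups Cyp7b1 stood at the 99.8th percentile of all tested genes. Vehicle replicate 4 was far below the rest, and BPA replicates 3 and 4 were below vehicle replicates 2 and 3. The log2 change of 1.28 had an SE of 0.96 (adjusted p = 0.609), and it was 0.32 without vehicle replicate 4. Cyp27a1, the mitochondrial sterol hydroxylase, averaged 17.8 ± 1.51 FPKM with vehicle and 17 ± 3.17 FPKM with BPA (log2 change -0.07, SE 0.139, adjusted p = 0.844). Cyp39a1, which acts on hydroxylated cholesterol, was at 0.736 to 1.21 FPKM in 7 libraries and at 2.5 FPKM for BPA replicate 4, with a log2 change of 0.24 that was 0.05 without that library. Cyp46a1, the cholesterol hydroxylase of neurons, had 111 reads and a mean of 0.252 FPKM.

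Of the P450 genes with less settled roles, Cyp2s1, an epithelial enzyme, was at 1.92, 1.79, 1.81 and 1.83 FPKM with vehicle and at 1.62, 2.59, 2.54 and 3 FPKM with BPA. BPA replicate 1 was below all vehicle libraries and the other BPA libraries were above them (log2 change 0.26, SE 0.138, adjusted p = 0.495). Cyp20a1, an orphan P450 with no settled substrate, averaged 4.9 ± 1.08 and 6.28 ± 1.53 FPKM (log2 change 0.30, adjusted p = 0.539).

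**Figure D4:**
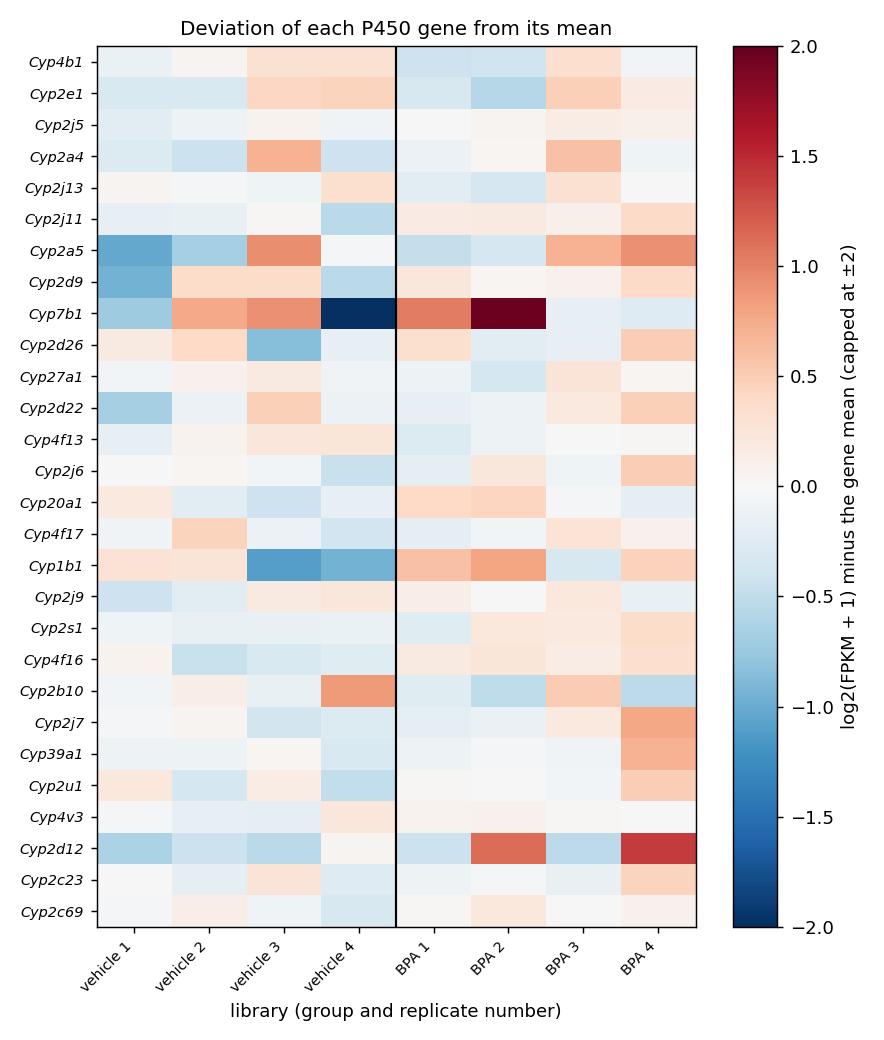
Deviation of each of the 28 tested P450 genes (rows, ordered by mean level) from its own mean in log2(FPKM + 1), in each library (columns, vehicle left and BPA right of the line), with the colour capped at ±2. Cyp7b1, Cyp2a5, Cyp2d12 and Cyp1b1 show the strongest colours within a group, and Cyp2j5 and Cyp4v3 are among the palest.

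Spread within groups differed between the P450 genes. The median SD within groups was 0.29 on the log2 scale for the 28 genes and 0.22 for all tested genes. For the 12 P450 genes at 10 FPKM or more it was 0.42, against 0.22 for all tested genes at that level. Cyp7b1, Cyp2a5, Cyp2d12 and Cyp1b1 were above the 90th percentile of all tested genes, and 10 of 28 were above the 80th.

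Partners of the P450 enzymes were given from a list. Of 11 electron donor genes 9 were tested, with 4 higher, 5 lower and 0 called. Por, the reductase that feeds microsomal P450 enzymes, was at 75.2, 79.1, 162 and 93.8 FPKM with vehicle and at 70.6, 71.7, 108 and 84.6 FPKM with BPA, highest in replicate 3 of both groups (log2 change -0.24, SE 0.254). Fdx1, the ferredoxin of mitochondrial P450 enzymes, averaged 26.5 ± 4.2 and 19.6 ± 6.79 FPKM, lowest in BPA replicate 4, and its reductase Fdxr 3.98 ± 0.788 and 3.16 ± 0.86 FPKM (log2 change -0.27). All 12 genes of heme synthesis and breakdown were tested, with 2 higher and 10 lower, a median log2 change of -0.19 and 0 called. Of all 13376 tested genes 6955 were lower, and of the 4090 at 10 FPKM or more 2396 were lower. Within replicates 1 and 2 and also within replicates 3 and 4, 5 of the 12 heme genes were lower and 2 higher. Alas1, the rate-limiting enzyme of heme synthesis, was at 23.7, 35.2, 37.9 and 31.6 FPKM with vehicle and at 17, 12.8, 29.6 and 23.7 FPKM with BPA. BPA replicates 1 and 2 were clearly below every vehicle library, BPA replicate 4 was level with vehicle replicate 1, the lowest of its group, and BPA replicate 3 lay within the vehicle range (log2 change -0.65, SE 0.253, adjusted p = 0.427). Ppox, a later enzyme of the pathway, averaged 2.9 ± 0.353 and 2.09 ± 0.556 FPKM (log2 change -0.35).

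Receptors and other regulators of P450 genes numbered 28 in the list, of which 23 were tested, with 11 higher, 12 lower, a median log2 change of -0.02 and 0 called. Rxrb, which encodes a partner of the xenobiotic receptors, had the smallest p, at 9.2 to 12.1 FPKM with vehicle and 5.58 to 8.17 FPKM with BPA (log2 change -0.46, SE 0.136, adjusted p = 0.365), with every BPA library below every vehicle library. The glucocorticoid receptor Nr3c1 was next, at 14 ± 0.928 and 18.5 ± 3.11 FPKM (log2 change 0.37, adjusted p = 0.387). Hnf4a, which drives many P450 genes, averaged 188 ± 9.08 and 171 ± 31.8 FPKM.

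Upstream sequence of RefSeq, from 250 bases before to 50 after the gene start, was matched by symbol for 70 of the 87 genes. For 6 of them, Cyp2c39, Cyp2d9, Cyp2c29, Cyp4f39, Cyp1a1 and Cyp11a1, the RefSeq start lay more than 1000 bases from the start of the deposited gene model, and these were left out. Motifs were counted on both strands in the remaining 64 windows, 19 of them of tested genes. TATAAA was found in 26 of the 64 windows (40.6%) and in 13.6% of all 32851 windows. CAAAGTCCA, a core of HNF4 elements, was in 11 windows (17.2%, against 0.475% of all), of which 10 belong to genes of the Cyp2c and Cyp3a clusters, and the other is that of Cyp8b1. Cyp2c69 was the only tested gene among the 11. GCGTG was in 13 of 64 windows (20.3%, against 32.4% of all), and TTANGTAA, the D-box of Dbp and its relatives, in 1 (1.56%, against 2.32%). GTTAAT, a part of the HNF1 element, was in 7 windows (10.9%, against 7.1%), among them those of Cyp2a4 and Cyp2a5. A match in these windows describes the letters and is not a measured binding site.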

How the data were processed

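Gene expression was measured by sequencing of polyadenylated RNA in 4 BPA and 4 vehicle kidney libraries. The authors deposited FPKM values with gene lengths; the submitters' processing notes name GRCm38 and, with no role, DESeq2 1.20.0. Aligner, counter and use of strand: not given in the sources used here, so reads of overlapping antisense genes cannot be told apart. Columns named C were read as vehicle by elimination. Multiplying FPKM by length recovered whole reads, to within 0.01 reads, for 100% of values up to 20 reads. The library sizes that the FPKM values imply were not the recovered totals. They were 1.55e+07 against 15944081 reads for vehicle replicate 3 and 1.83e+07 against 17351540 reads for vehicle replicate 1. How these sizes were set is not known here. Coordinates of 77 of the 87 genes equalled those of GENCODE M21.

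Limma 3.58.1 in R 4.3.3 was fitted to log2(FPKM + 1) of the 13376 genes with a mean of at least 0.5 FPKM, with a trended, robust variance and no covariate, and p-values were adjusted (Benjamini-Hochberg) over all of them. Lists are described by counts and medians only. The members, lists, tests and named genes were chosen with earlier results of these data known. Named with statistics were the 5 P450 genes of smallest p in each direction, the 8 most abundant and a fixed set; other tested P450 genes are given by level. Of the other lists, the 2 genes of smallest p are named; Por, Ephx2, Nqo1, Hnf4a, Nr1i2, Ahr, Dbp and Cyp2c38 were added after their values were seen. Transcripts were compared with blastn 2.17.0. Tables and plots used pandas 2.3.3, matplotlib 3.10.9, numpy 2.4.6 and Python 3.11.15. The closing section gives 22 alternatives.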

Additional observations from a re-analysis of the deposited data

Results flagged for a closer look

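Among 56 groups of 4 libraries (28 genes in each group), 4 held a library whose gap to the nearest other exceeded Dixon's 95% limit; chance gives about 1 in 20 groups. Cyp2a4 was at 634 FPKM in vehicle replicate 3, against 290 to 322 FPKM in the other vehicle libraries. Cyp39a1 was at 2.5 FPKM in BPA replicate 4, against 1 to 1.09 FPKM in the others. Cyp2u1 was at 1.94 FPKM in BPA replicate 4, against 1.02 to 1.13 FPKM. Cyp2c23 was at 1.26 FPKM in BPA replicate 4, against 0.512 to 0.631 FPKM. The last 3 values come from the library with the fewest genes above 0.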

How the results depend on the processing

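No P450 gene passed under any of the 22 alternatives, where the smallest adjusted p was 0.248 (Cyp2j11, with library weights). Their median log2 change, 0.21, was 0.0203 without a filter on low values, which adds the 37 genes with few reads, and 0.0781 without both replicates 4; leaving out single libraries gave 0.12 to 0.24. Library weights gave 0.11 (20 higher, 8 lower), and rescaling to a common total 0.15. The directions of 14 of the 19 genes named with statistics were the same in all alternatives that could be computed. Library weights turned Cyp2c23 (-0.0157) and Cyp4f17 (-0.0795), GC correction turned Cyp27a1 (0.0177), and the fit without both replicates 4 turned Cyp2c23 (-0.12), Cyp39a1 (-0.0182) and Cyp4f17 (-0.0768). With single libraries left out, Cyp2e1 ran from -0.30 to 0.0464, Cyp27a1 from -0.17 to 0.0297, Cyp4f17 from -0.059 to 0.22 and Cyp2c23 from -0.0469 to 0.18, and, with no change of direction, Cyp2j13 from -0.25 to -0.03, Cyp4b1 from -0.42 to -0.17, Cyp2b10 from -0.62 to -0.17 and Cyp7b1 from 0.32 to 1.80; the cause was not tested. The labels do not say whether equal replicate numbers pair the libraries. Deviations of same-numbered libraries from their group means correlated at 0.14, 0.02, 0.14 and -0.03. Those of differently numbered libraries ran from -0.22 (vehicle 1 with BPA 3) to 0.19 (vehicle 4 with BPA 3). Such correlations cannot settle whether the libraries were paired. With a replicate block in limma the median was 0.21, 0 genes passed and the smallest adjusted p was 0.447. Before adjustment, 4 of 28 genes had p under 0.05 in place of 2, all higher. Of all 13376 tested genes, 493 were higher and 883 lower at that limit. Of the 37 low genes 19 had under 10 reads in all, so depth limits what can be seen for them.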

Other observations

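The 37 P450 genes with reads but a mean under 0.5 FPKM held 1 to 163 reads each over the 8 libraries. In the fit without a filter on low values, 18 of these genes had a higher and 19 a lower mean with BPA (median log2 change -0.01), beside 22 higher and 6 lower among the 28 tested genes. Cyp4f37 had the smallest p of the 37 (log2 change -0.07, limma adjusted p = 0.683), with 9 reads in vehicle and 0 in BPA. Cyp2c38 had 6 reads in vehicle and 25 in BPA, most of them in BPA replicate 4, at 0.38 FPKM.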
